A study of Mus musculus with 30 samples.

Results

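Mouse secondary iPSCs that had differentiated for 96 h and were then re-seeded for 48 h in serum/LIF without dox (96 h –dox) were compared with the cells collected at 96 h, before re-seeding. Members were chosen by condition, and both conditions were taken whole, which is 4 of the 30 RNA-seq samples of the series, 2 in each condition. All samples came from the same kind of cell, a mouse iPSC that carries the reprogramming factors Oct4, Sox2, Klf4 and cMyc as transgenes under control of dox, with GFP in place of a Nanog allele and a constitutive nuclear RFP. These transgenes (OSKM) were carried in both conditions and were induced in neither. Before the time course the cells were held in serum/LIF and exposed to 2i/LIF, and differentiation was started by a change to N2B27 without 2i/LIF. The 96 h cells were collected in that medium, and the 96 h –dox cells had in addition been collected as single cells, replated and grown for a further 48 h in medium with serum and LIF. Medium, replating and time therefore changed together between the conditions and cannot be told apart. The comparison addresses what becomes of cells that have left pluripotency for 96 h when they are returned to conditions that maintain it.

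2i/LIF, which is LIF with inhibitors of MEK and GSK3, holds mouse pluripotent cells in the naive ground state, and on its withdrawal they pass through a formative state, with loss of naive regulators such as Esrrb and Klf4 and gain of Fgf5, Otx2 and Pou3f1. LIF acts through the receptor subunits Lifr and Il6st on Stat3, and serum brings BMP activity, which is read out in the Id genes. Trophoblast, the epithelium that forms the placenta, is a lineage that mouse pluripotent cells enter poorly in normal development, and it is marked by Cdx2, Gata2, Gata3, Tfap2c, Ascl2 and Hand1. It is also a tissue in which many imprinted genes, those transcribed from the maternal or the paternal chromosome alone, are highly expressed.

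The deposited table held a single FPKM value (fragments per kilobase of transcript, scaled to the fragments mapped) per gene and condition, which the authors computed from both replicates. No replicate values or read counts were in it, so none of the differences below carries a spread or a test, and the depth of each value is unknown. The values summed to 652188 FPKM at 96 h and to 675000 FPKM in 96 h –dox, and 4112 and 4369 of the 22477 genes were listed at 0. Steps between the low values of long genes with 1 transcript were also read. For a 2 kb gene at 1 FPKM they numbered about 37 at 96 h and 33 in 96 h –dox. The step size was searched only within a fixed range, and each column combines 2 replicates. These numbers can therefore be only a rough sign of depth. In these bulk samples fewer cells of a type and less RNA per cell cannot be told apart.

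A gene was counted when either value reached 1 FPKM, which 13022 genes did, and was called higher or lower when the values differed by at least 2-fold. Of these, 1612 genes were higher in 96 h –dox than at 96 h (12.4% of those counted) and 1459 were lower (11.2%). Which direction held more genes depended on the scaling, since after scaling both columns to the same upper quartile 1396 genes were higher and 1772 lower. The remaining 9951 genes differed by less than 2-fold, and the median log2 ratio of all counted genes was 0.01. Differences of at least 10-fold were more frequent upward, with 260 genes higher and 122 lower. Of the higher genes, 581 were counted only through their 96 h –dox value and so could enter only as higher. Among the 12298 genes that already had 1 FPKM at 96 h, 1031 were higher, or 8.38%. In the other direction, 628 of the lower genes were under 1 FPKM in 96 h –dox. Among the 1612 higher genes, 1303 exceeded every one of the 7 timepoints, and 940 did so by at least 2-fold. Of the 1459 lower genes, 903 stood below all 7 timepoints by any amount.

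**Figure D1:**
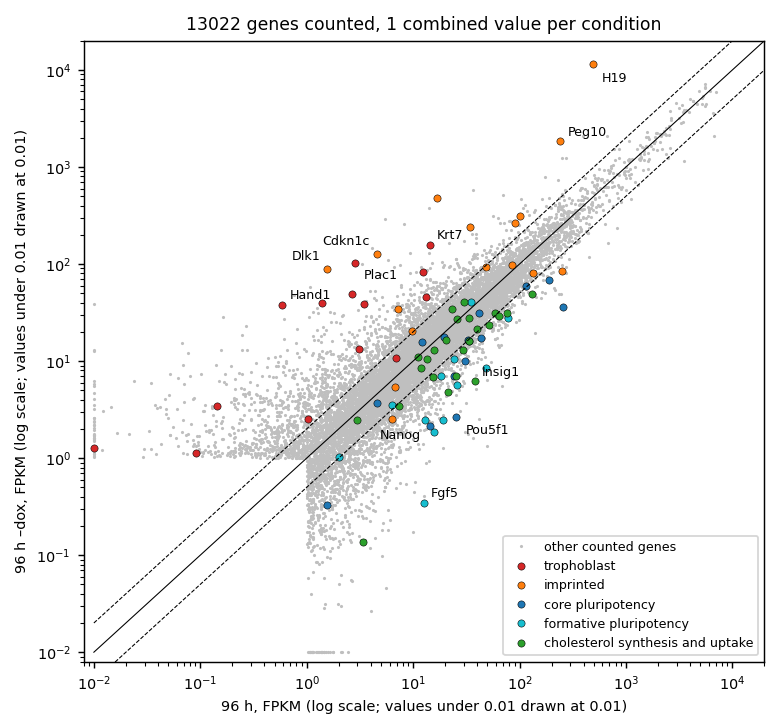
Each point is a counted gene, with its FPKM at 96 h on the x axis and in 96 h –dox on the y axis, both on log scales, and colours mark 5 gene lists. Solid and dashed lines mark equal values and 2-fold differences, and the trophoblast points lie above the upper dashed line except Tead4, at 6.96 and 10.8 FPKM.

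The 10 genes with the largest ratios among those reaching 10 FPKM were under 3 FPKM at all 7 timepoints. Steap4, a metalloreductase of the cell surface, had 0.0676 FPKM at 96 h and 15.2 FPKM in 96 h –dox, a 225-fold difference. Pparg, a nuclear receptor required in placenta and fat, had 0.272 and 22.8 FPKM. Hand1, a bHLH factor of trophoblast giant cells and heart, had 0.59 and 38.2 FPKM. Dlk1, an imprinted Notch-related ligand, had 1.57 and 88.8 FPKM. The others by this ratio were Serpinb9e (0.164 and 28.3 FPKM), Chil1 (0.0769 and 12.1 FPKM), 1600025M17Rik (0.158 and 12.9 FPKM), Serpinb6b (0.246 and 18.5 FPKM), the ion transport regulator Fxyd3 (0.761 and 48.5 FPKM) and the pantetheinase Vnn1 (1.07 and 58.3 FPKM). A further 3 genes were listed at 0 at 96 h and reached 10 FPKM, namely Hamp, which encodes the iron hormone hepcidin, at 38.5 FPKM, the platelet chemokine Ppbp at 13.1 FPKM and Serpinb9g at 12.8 FPKM.

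The 10 genes with the smallest ratios included members of Nodal signalling and Fgf5. Lefty1, a secreted inhibitor of Nodal, had 49.4 FPKM at 96 h and 1.32 FPKM in 96 h –dox, a 37.3-fold difference. Fgf5, the classical formative ligand, had 12.7 and 0.346 FPKM, and Foxh1, the DNA-binding partner of Smads in Nodal signalling, had 32.6 and 1.76 FPKM. Mt3, a metallothionein, had 10.1 and 0.171 FPKM, the largest ratio downward at 58.8-fold. The fatty acid transporter Slc27a2 had 12.6 and 0.403 FPKM, the adaptor Dok2 had 10.3 and 0.446 FPKM, and the secreted phospholipase Pla2g1b had 36.5 and 1.63 FPKM. The non-coding genes Gm16880, Gm26870 and G530011O06Rik completed the 10, with 10.4, 42 and 30.6 FPKM at 96 h and 0.563, 2.53 and 1.88 FPKM in 96 h –dox.

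By absolute amount, the largest gain was that of H19, an imprinted non-coding RNA, from 491 to 11602 FPKM. It was followed by the actin-binding peptide Tmsb4x (396 to 2098 FPKM), Tpt1 (2927 to 4551 FPKM), the retrotransposon-derived imprinted gene Peg10 (242 to 1855 FPKM) and Rps28 (5570 to 7089 FPKM). The largest losses were in the ferritin light chain Ftl1 (6673 to 2069 FPKM), Mt2 (6568 to 3561 FPKM), Hist1h2ao (3497 to 1150 FPKM), Rps15 (5571 to 4243 FPKM) and Mt1 (2503 to 1226 FPKM). Tpt1, Rps28, Rps15 and Mt2 differed by less than 2-fold. Ribosomal protein, ferritin, histone and Serpinb9 genes have near-identical copies between which reads could be split, so their single values are uncertain. Of 79 counted cytosolic ribosomal protein genes, 2 were lower, the low paralogs Rpl10l and Rpl39l, none was higher, and the median log2 ratio was -0.01.

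Trophoblast genes formed the list with the largest median difference of the 35 lists examined. All 14 members were counted, 13 were higher and none was lower, with a median log2 ratio of 3.50 over the 13 members above 0 in both conditions. Only 10 members had reached 1 FPKM at 96 h, and 9 of those 10 were higher. Their values summed to 62.1 FPKM at 96 h and 588 FPKM in 96 h –dox, and 13 of 14 had their highest value of all 15 conditions there, against 19.7% of all counted genes. Over the time course the sum had been 80.7 FPKM at 0 h and had reached its minimum at 48 h, at 21.1 FPKM. The list was chosen with earlier results of these data known, and its count describes these values only.

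Among the regulators of the lineage, Gata2 had 2.67 FPKM at 96 h and 49.7 FPKM in 96 h –dox, Tfap2c had 12.3 and 82.5 FPKM, and Gata3 had 3.11 and 13.3 FPKM. Ascl2, the imprinted bHLH factor of trophoblast progenitors, had 1.40 and 40 FPKM, and had been at 9.79 FPKM at 24 h. Esx1, an X-linked placental homeobox gene, had 3.45 and 38.9 FPKM, and Ets2 had 13.2 and 45.5 FPKM. Low in both conditions were Cdx2, which specifies trophectoderm and was listed at 0 at 96 h and had 1.27 FPKM in 96 h –dox, Elf5, a factor of trophoblast stem cells, at 0.145 and 3.44 FPKM, and Tpbpa, a spongiotrophoblast gene, at 0.0919 and 1.12 FPKM. Cdx2 was at 1.01 FPKM at 0 h, so its later value was 1.26-fold above its highest timepoint. Gcm1, which drives syncytiotrophoblast, had 1.03 and 2.54 FPKM. Plac1, an X-linked placental gene, lay between 0.130 and 2.84 FPKM at all 7 timepoints and had 103 FPKM in 96 h –dox, 16.2-fold above its highest value in any other condition. Tead4, a partner of Yap in trophectoderm, was the member that differed by less than 2-fold, and at 0 h it had been higher, at 17.4 FPKM.

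**Figure D2:**
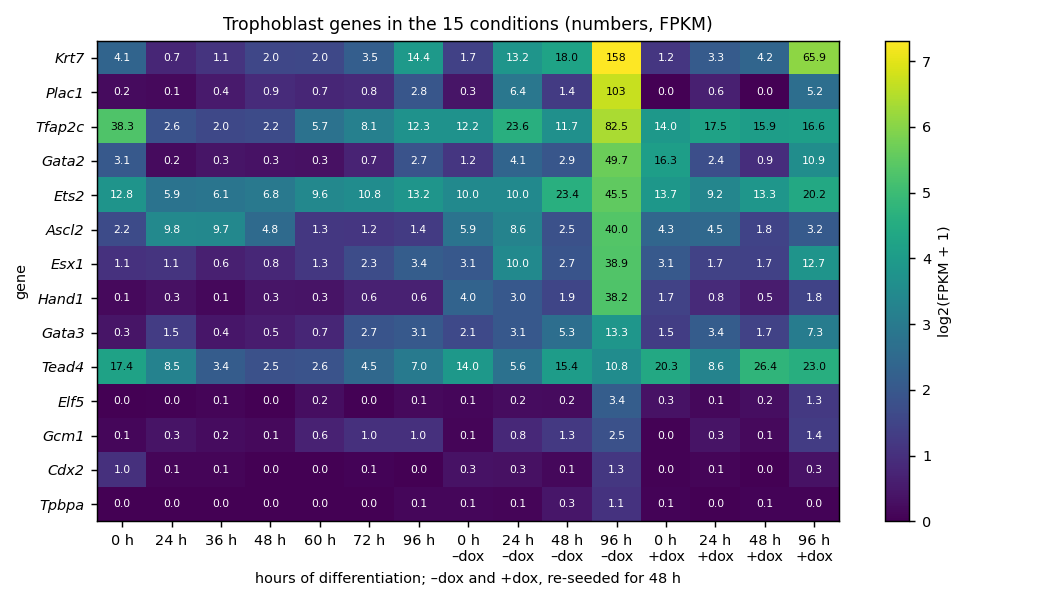
Rows are the 14 trophoblast genes, columns the 15 conditions, numbers FPKM and colours log2(FPKM + 1). The 96 h –dox column holds the highest value of every row but that of Tead4, whose highest value was 26.4 FPKM in 48 h +dox.

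Genes of later or clustered placental families were chosen after their values were seen and are given as counts. All 7 Serpinb9 genes, serine protease inhibitors that lie together on chromosome 13, were higher, and none had reached 1 FPKM at 96 h. Their sum was 1.47 FPKM at 96 h and 101 FPKM in 96 h –dox. In the X-linked Rhox homeobox cluster, Rhox6 had 14.1 and 379 FPKM and Rhox9 had 8.24 and 260 FPKM, whereas Rhox5, beside them, had 121 and 157 FPKM. The 4 prolactin family genes counted, of 17 in the table, were at or below 0.168 FPKM at 96 h and at 6.96 (Prl2a1), 6.07 (Prl2c5), 5.51 (Prl7d1) and 2.07 FPKM (Prl4a1) in 96 h –dox. The placental cathepsin Ctsj had 0.0501 and 2.59 FPKM, and the fusogen Syna 0.128 and 3.34 FPKM. None of 11 pregnancy-specific glycoprotein genes reached 1 FPKM in either condition. Sct, which encodes the hormone secretin, had 5.48 and 292 FPKM and was also chosen after its values were seen.

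Upstream sequence was available from RefSeq (GRCm38.p6) for 11 of the 14 trophoblast genes. The letters GCCNNNGGC, which read the same on both strands and which TFAP2 factors are known to bind, occurred in the 250 bases before the start of 5 of the 11 (45.5%), against 24.8% of the 9589 counted genes with a window, 28.3% of higher genes and 13.7% of all 32851 windows of that length. The letters AGATAA, read by GATA factors, occurred on either strand in 1 of the 11, against 6.65% of counted genes. Shown here are those of the keratin Krt7 and of Gata2 (a gene with 2 RefSeq windows, of which 1 is given), genes of the group with the TFAP2 letters and at 158 and 49.7 FPKM in 96 h –dox, 5′ to 3′ on the gene's strand with those letters in capitals. Such a match is a description of sequence and not evidence of binding.
Krt7, chr15:101412153-101412402, plus strand: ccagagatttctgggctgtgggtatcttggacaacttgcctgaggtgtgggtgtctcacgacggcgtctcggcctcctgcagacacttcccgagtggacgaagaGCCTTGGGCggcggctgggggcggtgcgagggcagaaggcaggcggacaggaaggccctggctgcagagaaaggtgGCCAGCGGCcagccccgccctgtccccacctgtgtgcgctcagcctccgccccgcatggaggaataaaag
Gata2, chr6:88198414-88198663, plus strand: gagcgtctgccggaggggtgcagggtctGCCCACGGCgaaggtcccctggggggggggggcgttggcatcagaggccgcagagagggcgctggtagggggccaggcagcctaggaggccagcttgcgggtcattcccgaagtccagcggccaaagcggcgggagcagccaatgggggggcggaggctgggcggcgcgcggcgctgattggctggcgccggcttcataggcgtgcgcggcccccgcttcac

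Imprinted genes were also higher by large amounts. Of 17 listed genes in the table, 16 were counted, all with 1 FPKM at 96 h already, and 10 were higher and 2 lower, with a median log2 ratio of 1.59. Besides H19, Dlk1 and Peg10, the higher genes were the fetal growth factor Igf2 (16.7 and 474 FPKM), the cell cycle inhibitor Cdkn1c (4.55 and 128 FPKM), the placental growth inhibitor Phlda2 (33.9 and 241 FPKM), Peg3 (101 and 312 FPKM), Plagl1 (7.22 and 34.1 FPKM), Nnat (90.8 and 266 FPKM) and Ndn (9.74 and 20.3 FPKM). Grb10, an adaptor that restrains insulin signalling, was lower (6.27 and 2.55 FPKM), and so was Meg3. Mest, Snrpn, Sgce and Igf2r differed by less than 2-fold. H19 in 96 h –dox stood 5.24-fold above its highest value in any other condition, Igf2 5.07-fold and Cdkn1c 7.38-fold. A higher list median was not particular to re-seeding at 96 h. After re-seeding without dox at 0, 24 and 48 h the imprinted medians were 1.25, 2.01 and 1.10.

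The genes H19, Igf2, Ascl2, Cdkn1c and Phlda2 lie within 1 Mb of each other at the distal end of chromosome 7 (mm10), where Gencode M21 places H19 at chr7:142575529-142578143 on the minus strand. From Ifitm10 to Dhcr7, an interval set after the values were seen, 24 genes were counted, of which 13 were higher, 4 lower and 7 neither. The differences did not run through the whole interval. Igf2 (4.83), Ascl2 (4.83), H19 (4.56) and Cdkn1c (4.81) had like log2 ratios, whereas Cd81 (0.49), Tssc4 (0.27), Nap1l4 (-0.11) and Cars (-0.42), which start among or just beyond them, had log2 ratios between -1 and 1. The antisense transcript Kcnq1ot1, which silences genes of its domain in cis on the paternal chromosome, had 1.28 FPKM at 96 h and 0.463 FPKM in 96 h –dox. At lower coordinates than H19, the muscle genes Tnnt3 (1.18 and 16.5 FPKM) and Tnni2 (4.80 and 34.4 FPKM) and the leukocyte gene Lsp1 (2.34 and 13.2 FPKM) were higher, and the ribosomal gene Mrpl23, between them and H19, was not (86.3 and 63.6 FPKM). Igf2os lies antisense to Igf2, and whether the counting used strand is not stated, so its value of 4.34 FPKM may hold reads of Igf2.

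**Figure D3:**
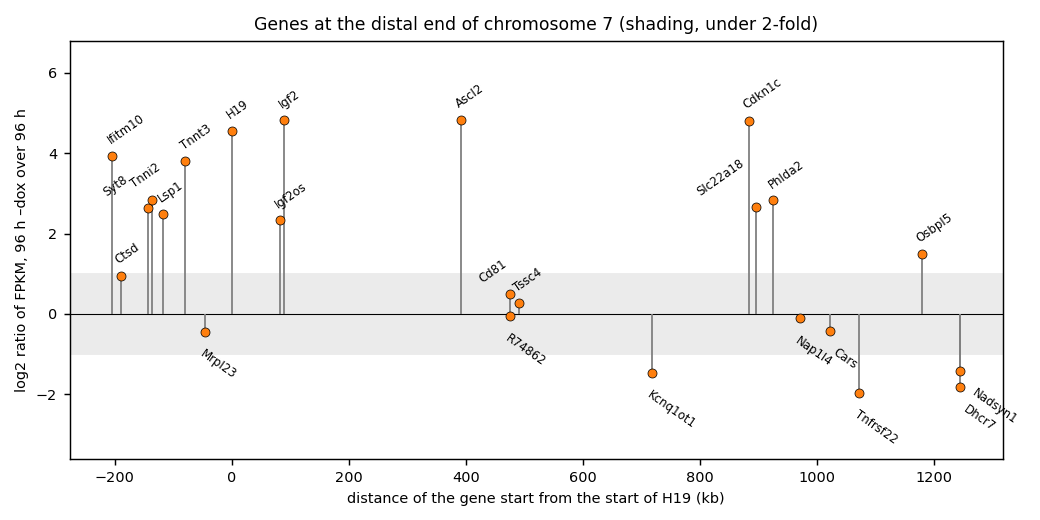
The log2 ratio of FPKM in 96 h –dox over 96 h is drawn against the distance of each gene's start from that of H19, in kb, for the 24 counted genes of the interval. Points outside the shaded band differed by at least 2-fold, and the 4 lowest are Tnfrsf22, Dhcr7, Kcnq1ot1 and Nadsyn1.

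At the Dlk1-Meg3 domain on chromosome 12 Dlk1 stood apart from the other genes. Dlk1, expressed from the paternal chromosome, was 56.7-fold higher, whereas the maternally expressed non-coding RNAs Meg3 (249 and 84.2 FPKM) and Mirg (63.2 and 14.7 FPKM) were lower, and Rian (288 and 170 FPKM) was lower by less than 2-fold. Rtl1, paternally expressed like Dlk1, was lower too (6.21 and 2.51 FPKM), although maternal antisense transcripts overlap it and strand is not stated. Of the 7 genes counted there, Dlk1 alone was higher and 5 were lower. These genes outside the lists were chosen after their values were seen. Next to Peg10 on chromosome 6, Sgce, which shares its imprinted promoter region, had 47.9 and 93.6 FPKM, and Ppp1r9a and Casd1 differed by less than 2-fold. Allele-specific reads were not analysed here.

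Core pluripotency genes were lower or differed by less than 2-fold. Of 14 core genes 9 were lower, none was higher, and the median log2 ratio was -1.38. Pou5f1, which encodes Oct4, had 25.5 FPKM at 96 h and 2.63 FPKM in 96 h –dox, after 199 FPKM at 0 h, and Nanog had 14.5 and 2.13 FPKM, after 227 FPKM at 0 h. Because GFP replaces a Nanog allele and the transgenes include Oct4, Sox2 and Klf4, the values of these genes do not say which copy was read. Sox2 (33 and 16.3 FPKM), Utf1 (254 and 35.8 FPKM), Lin28a (188 and 67.9 FPKM), Zscan10 (24 and 6.95 FPKM) and L1td1 (43 and 17.5 FPKM) were lower. Sall4, Lin28b, Zfp281, Trim71 and Tdgf1 differed by less than 2-fold, the first from 115 to 59.9 FPKM.

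Formative genes were mostly lower too. Of 14 in the list 13 were counted, 10 were lower, none was higher and the median log2 ratio was -1.498. Otx2 (33.7 and 16.1 FPKM), Pou3f1 (25.9 and 5.64 FPKM), Zic2 (48.3 and 8.49 FPKM), Zic5 (19.2 and 2.46 FPKM), Sox3 (15.9 and 1.86 FPKM) and the de novo methyltransferase Dnmt3b (78.7 and 27.9 FPKM) were among them. Dnmt3a, the other de novo enzyme, did not differ by 2-fold (34.7 and 40.8 FPKM). Nodal, the ligand upstream of Lefty1 and Foxh1, had 13.9 and 3 FPKM, and Lefty2 had 5.63 and 0.642 FPKM.

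The naive genes divided, against 12.4% higher and 11.2% lower over all counted genes. Of 18 in the list 14 were counted, 5 were higher and 6 lower, and the median log2 ratio was -0.22. The higher members were Klf4 (2.07 and 11.4 FPKM), Klf5 (11 and 32.2 FPKM), Tfcp2l1 (1.48 and 4.11 FPKM), Tbx3 (1.81 and 4.99 FPKM) and Tex19.1 (6.63 and 13.3 FPKM). All 5 remained below their values at 0 h, which were 92.7, 78.1, 124, 51.5 and 34.5 FPKM. Klf4, Klf5 and Tfcp2l1 are known targets of LIF and Stat3, and Klf5 and Tfap2c also act in trophectoderm. Lower were Dppa5a (161 and 51.5 FPKM), Fgf4 (3.11 and 0.581 FPKM), Dppa3, Gbx2, Fbxo15 and Eras, whereas Esrrb (3.07 and 1.98 FPKM), Klf2 (5.78 and 10.6 FPKM) and Zfp42 (7.44 and 8.54 FPKM) differed by less than 2-fold.

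Many genes of the LIF and BMP pathways were higher, against 12.4% higher and 11.2% lower over all counted genes. In the LIF and Stat3 list 9 of 15 genes were higher and 1 lower, with a median log2 ratio of 1.44. They included the receptor subunits Lifr (1.38 and 4.33 FPKM) and Il6st (10.7 and 35.5 FPKM), Stat3 itself (11.6 and 27.9 FPKM) and its feedback inhibitor Socs3 (7.70 and 32.6 FPKM), and Bcl3 (7.12 and 39.8 FPKM). Pim1, a kinase gene induced by Stat3 in other settings, was lower (70.8 and 28.2 FPKM). In the BMP list 10 of 18 counted genes were higher and 1 lower, with a median log2 ratio of 1.54. Of the 18, 13 had their highest value of the 15 conditions in 96 h –dox, against 19.7% of all counted genes. The targets Id1 (80.9 and 275 FPKM), Id2 (39 and 164 FPKM), Id3 (123.1 and 321 FPKM) and Msx2 (2.08 and 24.9 FPKM) were higher, as were the ligands Bmp4 (3.68 and 19.3 FPKM) and Bmp2 (1.42 and 9.71 FPKM) and the inhibitors Smad6 (2.73 and 8.81 FPKM) and Smad7 (4.49 and 14.7 FPKM). Bmp7 was lower (26.1 and 10.6 FPKM). The Id genes had already been above their 72 h values at 96 h, Id1 at 5.96 FPKM at 72 h and 80.9 FPKM at 96 h.

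Other pathways gave divided counts, against 12.4% higher and 11.2% lower over all counted genes. Of 16 TGF-beta genes counted 7 were higher (6 of the 15 already at 1 FPKM at 96 h), among them Tgfb2 (2.69 and 19.13 FPKM) and its target Tgfbi (1.72 and 16.1 FPKM), and 4 were lower, of which Lefty1, Lefty2 and Nodal make up the Nodal arm. Of 13 Wnt genes 4 were higher and none lower. But of the 10 already at 1 FPKM at 96 h only 1 was higher, near the 8.38% over all such genes. The secreted inhibitors Dkk1 (1.79 and 31 FPKM) and Notum (0.24 and 5.27 FPKM) were higher, whereas Axin2, a common target, had 7.96 and 11.1 FPKM. Of 16 retinoic acid genes 5 were higher (3 of the 14 already at 1 FPKM), among them Meis1 (1.13 and 11.7 FPKM), and the degrading enzyme Cyp26a1 was lower (17.6 and 2.61 FPKM). Of 17 immediate early genes 6 were higher, including Fos (10.9 and 27.7 FPKM), Junb (19.2 and 63.9 FPKM) and Atf3 (14.2 and 32.3 FPKM), and none was lower. Myc, which is also a transgene, had 7.70 and 57.6 FPKM.

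Most epithelial genes differed by less than 2-fold, while most mesenchymal and stromal matrix genes were higher. The shares over all counted genes were 12.4% higher and 11.2% lower. Of 19 epithelial genes counted 15 differed by less than 2-fold, among them E-cadherin, Cdh1 (113 and 156 FPKM), Epcam (176 and 130 FPKM) and Cldn6 (176 and 181 FPKM). The 4 that were higher were the simple-epithelial keratins Krt7 (14.4 and 158 FPKM), Krt8 (272 and 1227 FPKM), Krt18 (670 and 2071 FPKM) and Krt19 (69.4 and 513 FPKM). In the mesenchymal list 11 of 17 genes were higher (8 of the 14 already at 1 FPKM at 96 h) and 1 lower, including vimentin, Vim (63.3 and 299 FPKM), Lgals1 (250 and 1237 FPKM), S100a6 (36.2 and 583 FPKM), Mmp14 (11.4 and 42.6 FPKM) and Snai1 (2.197 and 10.8 FPKM). Twist1 was lower (3.21 and 1.25 FPKM), and Zeb1 and Zeb2 differed by less than 2-fold. Of 10 annexins, which bind membrane phospholipids in the presence of calcium, 7 were higher, among them Anxa1 (15.1 and 157 FPKM) and Anxa2 (103 and 466 FPKM). These annexins were picked after their values were seen.

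Among matrix genes, 11 of 17 fibrillar and other stromal genes were higher (9 of the 15 already at 1 FPKM at 96 h) and none was lower, with a median log2 ratio of 1.64. Col1a1 had 5.64 and 33.2 FPKM, Col1a2 13.6 and 86 FPKM, Col3a1 1.47 and 8.22 FPKM and fibronectin, Fn1, 33.5 and 104 FPKM. In the basement membrane list 7 of 15 were higher and none lower, against 12.4% higher and 11.2% lower over all counted genes. Col4a1 (18.7 and 104 FPKM) and Col4a2 (15.1 and 103 FPKM), which encode the paired chains of type IV collagen, and Nid1 (3.59 and 41.9 FPKM) were higher, and the laminins Lamb1 (60.7 and 74.7 FPKM) and Lamc1 (72.5 and 93.3 FPKM) were not. Of 12 integrin subunits 5 were higher, but only 2 of the 9 already at 1 FPKM at 96 h, and Itgb3 had 0.809 and 12 FPKM. Contractile genes and targets of SRF gave 7 of 21 higher and none lower, such as Acta2 (97.9 and 255 FPKM) and Fhl2 (2.23 and 16.6 FPKM), and 5 of 16 Yap/Tead targets were higher with a median log2 ratio of 0.05. The classical Yap targets Ctgf (29.6 and 30.2 FPKM), Cyr61 (101 and 52.9 FPKM) and Amotl2 (155 and 155 FPKM) differed by less than 2-fold.

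Feeder fibroblasts are a possible other source of matrix transcripts, since cells were re-seeded on MEF feeders in the colony-forming assay, and the surface used for RNA-seq is not stated. The 20 fibroblast markers summed to 33.4 FPKM at 96 h and 53.1 FPKM in 96 h –dox, against 271 FPKM at 0 h and between 33.4 and 59.7 FPKM at the 6 later timepoints. Of the 11 counted, 7 were higher and 2 lower, with a median log2 ratio of 1.84, and of the 5 already at 1 FPKM at 96 h 2 were higher and 2 lower. The members did not share a direction. Low or lower in 96 h –dox were Dcn at 1.76 and 0.791 FPKM, Thy1 at 3.96 and 0.222 FPKM and Lum at 0.0426 and 0.0605 FPKM, with Dpt and Tcf21 listed at 0 in both. At 0 h, Dcn had 71 FPKM and Lum 14.8 FPKM. Higher were Postn (0.642 and 9.91 FPKM), Pdgfrb (1.22 and 7.37 FPKM) and Mfap5 (2.36 and 8.42 FPKM), and the part of feeder cells in these values was not tested.

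Genes of sterol synthesis were lower or differed by less than 2-fold. Of 24 cholesterol genes, all above 1 FPKM at 96 h, 12 were lower and none was higher, with a median log2 ratio of -0.99. The early enzymes Hmgcs1 (76.9 and 31.3 FPKM) and Idi1 (21.4 and 4.80 FPKM), the late enzymes Msmo1 (51.8 and 23.6 FPKM) and Dhcr7 (25 and 7.06 FPKM), and the regulators Srebf2 (64.2 and 28.9 FPKM) and Insig1 (37.9 and 6.23 FPKM) were lower. Of 13 fatty acid genes 4 were lower, among them Fasn (56.3 and 25.2 FPKM) and Elovl6 (12 and 3.58 FPKM), and Elovl1 was higher (27.7 and 80.9 FPKM).

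SREBP2, the product of Srebf2, is known to act on sterol gene promoters together with NF-Y, which binds the letters CCAAT. Of the 16 cholesterol genes with a RefSeq window all 16 held CCAAT on either strand in the 250 bases before the start, against 41.0% of the 9589 counted genes with a window, 42.6% of lower genes and 33.8% of all windows. The sterol element letters TCACNCCAC were found in 1 of the 16, Hmgcs1, and in 1.29% of counted genes. No CCAAT match overlaps it. Shown are the windows of Hmgcs1, Insig1 and Idi1, which were lower after re-seeding from every differentiation time, with CCAAT, or its reverse complement ATTGG, and TCACNCCAC in capitals. The sterol element of Hmgcs1 begins 137 bases before the start, and the CCAAT match nearest the start begins at 45 bases in Hmgcs1, 216 in Insig1 and 14 in Idi1. No match says only that these letters are not in this window.
Hmgcs1, chr13:119690101-119690350, plus strand: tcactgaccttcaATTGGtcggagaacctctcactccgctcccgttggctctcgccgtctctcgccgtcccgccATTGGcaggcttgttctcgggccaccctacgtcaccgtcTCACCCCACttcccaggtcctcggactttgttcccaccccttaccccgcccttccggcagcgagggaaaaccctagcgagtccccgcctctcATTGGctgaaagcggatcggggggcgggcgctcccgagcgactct
Insig1, chr5:28071162-28071411, plus strand: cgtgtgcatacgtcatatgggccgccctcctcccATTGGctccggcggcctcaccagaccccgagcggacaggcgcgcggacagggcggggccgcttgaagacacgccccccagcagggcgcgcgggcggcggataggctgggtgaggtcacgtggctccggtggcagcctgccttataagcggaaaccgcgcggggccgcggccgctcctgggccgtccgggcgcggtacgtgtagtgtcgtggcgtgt
Idi1, chr13:8885356-8885605, plus strand: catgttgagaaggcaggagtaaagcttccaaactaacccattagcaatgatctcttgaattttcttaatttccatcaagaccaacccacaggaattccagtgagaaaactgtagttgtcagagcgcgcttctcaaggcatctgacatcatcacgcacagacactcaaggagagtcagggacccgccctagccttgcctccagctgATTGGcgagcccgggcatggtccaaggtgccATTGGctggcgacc

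The serine and one-carbon, glycolysis and proliferation lists had medians lower by smaller amounts. Over all counted genes 11.2% were lower and 12.4% higher. Of 14 serine and one-carbon genes 6 were lower and none higher (median log2 ratio -0.73), such as Psat1 (179 and 75.7 FPKM), Mthfd1 (58.7 and 23.3 FPKM) and Gcat (20.5 and 4.36 FPKM). Of 20 glycolysis genes 3 were lower, Slc2a3 (890 and 437 FPKM), Hk2 (46.4 and 17.2 FPKM) and Eno1 (630 and 259 FPKM), and the median was -0.62. The 18 proliferation genes had a median of -0.68, with Aurkb (67.6 and 33.2 FPKM) and Bub1 (49 and 24.2 FPKM) lower by 2-fold and the others, such as Cdk1 (214 and 224 FPKM), differing by less. The counts of lower glycolysis and proliferation genes lay near the share over all counted genes. Ccnd1, a cyclin of the G1 phase, had 23.2 and 3.71 FPKM. The cell cycle inhibitors Cdkn1c, Cdkn2b (2.13 and 11.9 FPKM) and Cdkn2a (11.3 and 28 FPKM) were higher, and Cdkn1a was not (47.5 and 55.3 FPKM). Of 57 replication-type histone genes 25 were lower and 3 higher, although their main transcripts lack the poly(A) tail by which RNA was selected. Among 18 p53 targets 2 were higher and 1 lower, and among 14 targets of the stress factor Atf4 1 was higher and 2 lower. The count of higher p53 targets also lay near the share over all counted genes.

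Inflammatory genes were higher from low levels, against 12.4% higher and 11.2% lower over all counted genes. Of 16 chemokine and inflammatory genes counted 10 were higher and none lower, but only 4 of the 10 already at 1 FPKM at 96 h were higher. Csf1, a growth factor that also acts on trophoblast, had 7.40 and 34.3 FPKM, and Ccl2 had 0.822 and 4.602 FPKM, below its 70.7 FPKM at 0 h. In the interferon list 10 of 20 were higher (6 of the 16 already at 1 FPKM at 96 h) and 1 lower, with Isg15 at 1.25 and 20.8 FPKM and the MHC class I light chain B2m at 175 and 399 FPKM, whereas Psmb9 was lower (8.97 and 1.48 FPKM).

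Markers of other lineages gave divided counts, against 12.4% higher and 11.2% lower over all counted genes. Among all genes already at 1 FPKM at 96 h, 8.38% were higher. Of 18 primitive streak and mesendoderm genes 7 were counted, of which 4 were higher and 3 lower, with a median log2 ratio of 1.61. The higher members include Hand1 and Snai1, which the trophoblast and mesenchymal lists also hold. Of the 4 already at 1 FPKM at 96 h 1 was higher and 3 were lower. T, Eomes, Mixl1 and Mesp1 were under 1 FPKM in both conditions. Sox17, which marks endoderm, had 0.733 and 6.84 FPKM and Gata6 1.10 and 3.37 FPKM, while the visceral endoderm genes Afp and Ttr were under 1 FPKM in both and Amn (1.46 and 0.115 FPKM) and Apoe (678 and 163 FPKM) were lower. Of 15 neurectoderm genes counted 6 were higher and 2 lower, with a median log2 ratio of -0.02, and of the 12 already at 1 FPKM at 96 h 3 were higher and 2 lower. Sox1, the earliest of these in the neural lineage, had 13.3 and 0.893 FPKM and Pax6 4.41 and 2.23 FPKM, whereas Fabp7 (0.293 and 6.09 FPKM) and Tubb3 (10.4 and 31.7 FPKM) were higher. In the neural crest list 4 of 12 counted genes were higher and 2 lower. Among its 10 members already at 1 FPKM at 96 h, 2 were higher and 2 lower. Tfap2b had 0.0095 and 2.19 FPKM and Sox10 was under 1 FPKM in both. In the endothelial list 3 of 7 counted genes were higher and 3 lower. Among its 5 members already at 1 FPKM at 96 h, 1 was higher and 3 were lower. The endothelial cadherin Cdh5 had 0.247 and 13.1 FPKM and Flt1, which trophoblast also expresses, had 1.48 and 7.68 FPKM. Egfl7 was lower (63 and 29.6 FPKM), and Kdr, Tie1, Emcn and Erg were under 1 FPKM in both. Of 8 muscle genes counted 2 were higher, Myl4 (4.36 and 53 FPKM) and Actc1 (5.71 and 15.4 FPKM). In that list 1 gene was lower and 5 differed by less than 2-fold, with a median log2 ratio of -0.02. Only 1 of 38 Hox genes reached 1 FPKM in either condition.

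**Figure D4:**
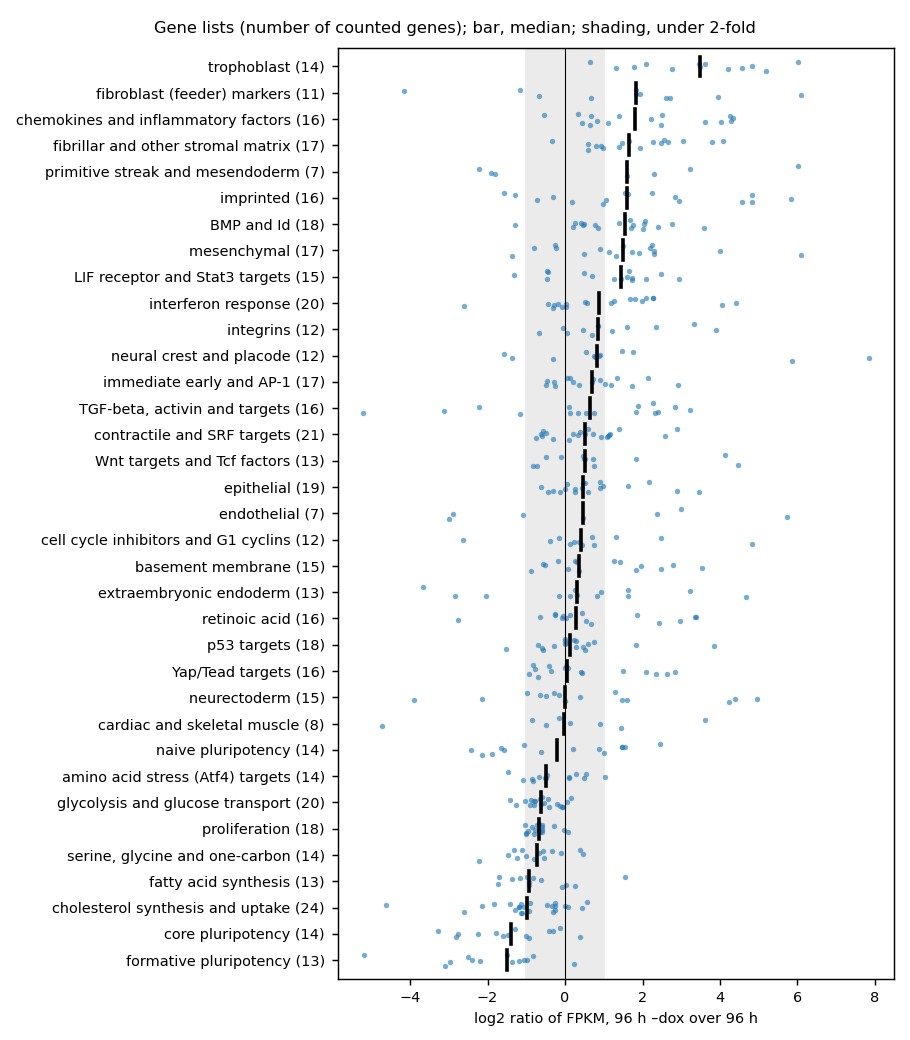
Points are counted genes of the 35 lists, with the log2 ratio of FPKM in 96 h –dox over 96 h on the x axis, and bars are list medians. Numbers in brackets give the genes counted, genes at 0 in either condition are not drawn, and medians run from -1.498 (formative) to 3.50 (trophoblast).

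Of the genes lost early in differentiation more were higher than lower. The 524 genes at least 4-fold lower at 72 h than at 0 h, with 5 FPKM or more at 0 h, were chosen without the 96 h values. Their median log2 ratio was 0.56 over 498 genes above 0 in both conditions, and of the 379 counted 168 were higher and 49 lower. Over all counted genes 12.4% were higher and 11.2% lower. A member under 1 FPKM at 96 h could not be called lower, so the rule favours higher calls here. How many of the 379 were under 1 FPKM at 96 h was not determined. Of those 168, 42 reached their 0 h level. By median the set stood at 17.3 FPKM when undifferentiated, at 1.51 FPKM at 96 h and, after re-seeding, at 2.45 FPKM. The set held 35 genes of the fibroblast, stromal matrix, mesenchymal and chemokine lists, whose median log2 ratio was 1.72, and 17 of the core or naive pluripotency lists, whose median was 0.37 with 4 higher and 5 lower. Re-seeding at 0 h took the fibroblast marker sum from 271 to 33.3 FPKM, and the 150 genes of the set that re-seeding at 0 h lowered by 4-fold or more had a median of 1.19, against 0.31 for the other 374. The 426 genes gained by the same rule had a median log2 ratio of -0.50, with 42 higher and 149 lower.

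The same re-seeding without dox was also done at 0, 24 and 48 h, each pair with samples of its own. Of the genes higher in the 96 h pair, 605 were also higher in the 48 h pair, which is 37.5% of the former and 30.9% of the latter, and 404 were lower in both, 27.7% and 27.3%. Of the genes counted in each pair, 15.3% were higher and 11.5% lower in the 48 h pair, 14.9% and 10.6% in the 24 h pair, and 12% and 10.1% in the 0 h pair. Shared higher genes were 325 with the 24 h pair (20.2% of those of the 96 h pair) and 160 with the 0 h pair (9.93%). Conversely, 361 of the genes lower in the 96 h pair were higher in the 0 h pair, 24.7%, and 144 were higher in the 48 h pair, 9.87%. Across genes counted in both pairs, Spearman's rho of the log2 ratios was 0.39 with the 48 h pair (12150 genes), 0.01 with the 24 h pair and -0.22 with the 0 h pair, a description over genes that are not independent. In all 4 pairs 57 genes were higher and 19 lower. The former include H19, Peg10, Nnat, Hand1, Gata3, Esx1, Krt8, Krt18, Krt19, Id1, Id2 and Junb, and the latter Hmgcs1, Idi1, Msmo1, Insig1 and Dcn, all picked from them after the values were seen.

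List medians showed where the 96 h pair stood apart in value from the others. The cholesterol list was lower in every pair, with median log2 ratios of -0.89, -1.37, -1.90 and -0.99 for the pairs of 0, 24, 48 and 96 h. Trophoblast genes had -0.34, 3.17, 2.44 and 3.50, but their sums after re-seeding were 55, 88.8, 87.2 and 588 FPKM, so the 24 and 48 h ratios were taken between low values. Imprinted genes had 1.25, 2.01, 1.10 and 1.59, with the largest median in the 24 h pair. Core pluripotency genes had 0.77, -0.52, -0.37 and -1.38. Nanog was higher in the 48 h pair, with 6.45 FPKM before and 32.9 FPKM after re-seeding, and lower in the 96 h pair, and Tdgf1, the Nodal co-receptor, had 47.3 and 130 FPKM at 48 h but 4.62 and 3.72 FPKM at 96 h. Lefty1 went from 9.56 to 96.2 FPKM in the 48 h pair. Targets of Yap/Tead (-0.11, 0.99, 2.11 and 0.05), targets of Atf4 (0.24, 1.41, 1.07 and -0.48) and epithelial genes (0.75, 1.67, 1.28 and 0.47) had their largest medians at 24 or 48 h. Differences between pairs were not tested.

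Cells re-seeded from 96 h with dox are given as levels only, since a comparison of both re-seeded conditions with 96 h would share the 96 h samples. The trophoblast sum was 170 FPKM in 96 h +dox, between the 62.1 FPKM of 96 h and the 588 FPKM of 96 h –dox. Plac1 had 5.23 FPKM there, Hand1 1.76 FPKM, Gata2 10.9 FPKM, Ascl2 3.22 FPKM, Krt7 65.9 FPKM and H19 2214 FPKM, each between the other conditions. Not every trophoblast gene lay between them. Tead4 had 23.0 FPKM in 96 h +dox, above both, and Tpbpa 0.0415 FPKM, below both. Core pluripotency genes summed to 806 FPKM at 96 h, and after re-seeding to 412 FPKM with dox and 288 FPKM without. Pou5f1 had 9.95 FPKM and Nanog 8.63 FPKM in 96 h +dox, values that include any transcript of the Oct4 transgene read as Pou5f1. Id1 stood at a like level in both re-seeded conditions, at 273 FPKM with dox and 275 FPKM without, and S100a6 was higher with dox (868 FPKM) than without (583 FPKM).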

How the data were processed

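RNA-seq of polyadenylated RNA was analysed for 2 of the 15 conditions, with the other conditions as levels or as pairs that share no sample with them. In the published methods, reads were mapped to mm10 (TopHat 2.0.14) and assigned to Gencode M4 transcripts, limited to 6 biotypes and to lengths of 200 bp or more, by Cuffquant (Cufflinks 2.2.1). The authors then combined the 2 replicates of each condition with Cuffdiff into the deposited FPKM values. The library normalization is not given in the sources used here, and the table is named RPKM in its file and FPKM in the methods. The deposited response columns hold the authors' own calls and were not used. No column of per-sample values was left unmapped.

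Plain ratios were taken in Python 3.11.15 with numpy 2.4.6 and pandas 2.3.3. Genes counted had 1 FPKM in either value, and a call was a 2-fold difference. Medians of log2 ratios had no pseudocount and left out genes at 0. The genes named were the 10 largest and 10 smallest ratios among genes reaching 10 FPKM, the 5 largest gains and losses in FPKM, genes at 0 in one value and at 10 FPKM or more in the other, and genes of the lists. Any other gene was picked with its values in view, whether or not it is marked so where named. The comparison, the 35 lists and the families were chosen with earlier results of these data known. A further 27 rows with names turned into dates by a spreadsheet were kept in counts and never named. Gene positions were read from Gencode M21 (mm10), which held 94.9% of the symbols. Some genes are not reported here. The steps were tested on simulated data. Alternatives were tried for the minimum, the fold, a pseudocount and the scaling.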

Additional observations from a re-analysis of the deposited data

Results flagged for a closer look

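Among the 10 genes with the smallest ratios, 3 that were lower in the 96 h pair were higher by at least 2-fold in the 48 h pair, so that both effects of re-seeding pointed in opposite directions. For Lefty1 the log2 ratio at 96 h minus that at 48 h was -8.55, for Dok2 it was -6.05, and for the non-coding gene Gm16880 it was -5.41. Each condition has a single combined value, and none of the differences in this section was tested. The values before and after re-seeding were 9.56 and 96.2 FPKM at 48 h and 49.4 and 1.32 FPKM at 96 h for Lefty1, 14.9 and 42.9 FPKM and 10.3 and 0.446 FPKM for Dok2, and 3.56 and 8.14 FPKM and 10.4 and 0.563 FPKM for Gm16880.

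Among the genes of the lists, 15 were lower at 96 h and higher at 48 h, and 12 the reverse, of which 9 and 3 reached 10 FPKM in the 96 h pair. Over all genes, 144 of those lower at 96 h were higher at 48 h (9.87%). Conversely, 72 of those higher at 96 h were lower at 48 h (4.47%). How many list genes were counted in both pairs was not determined, so the list counts cannot be set against these shares. Besides Lefty1, those lower at 96 h were led by the glucose transporter Slc2a3, with a difference of -6.32 between the log2 ratios, the retinoic acid degrading enzyme Cyp26a1 (-6.15), the ligand Nodal (-5.32) and Nanog (-5.13). Smaller differences were found for the kinase Pim1 (-4.38), the lipid carrier Apoe (-3.81), Chac1, which degrades glutathione (-3.06), and the ligand Bmp7 (-2.80). In the reverse direction stood Dlc1 (4.003), the neuronal tubulin Tubb3 (3.05) and the germline gene Tex19.1 (2.70).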

How the results depend on the processing

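With 1 combined value per condition no result has a replicate check, and alternatives show only how counts depend on choices. As reported, 1612 genes were higher, 1459 lower and 1009 moved the same way in the 48 and 96 h pairs. Without a minimum, for genes above 0 in both values, there were 2539 higher, 2453 lower and 1625 shared. With 1 FPKM required in both values there were 1031 higher, 831 lower and 553 shared, and with 5 FPKM in the higher value 972 higher, 722 lower and 537 shared. At 1.5-fold there were 2861 higher, 2809 lower and 2278 shared, and at 4-fold 662 higher, 451 lower and 224 shared. After 1 FPKM was added to both values, 895 were lower and 638 shared. Those counts move by construction with the minimum, the fold or the added value. Both scalings kept the 3 counts within 1.5 times, and scaling to the same upper quartile shifted every log2 ratio by -0.12, which gave 1396 higher and 1772 lower genes and so reversed which direction was the larger.

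The median log2 ratio of the lost genes, 0.56 as reported, was 0.24 with 1 FPKM added, 0.44 with 0.1 FPKM added, 0.29 with a 2-fold choice, 0.66 with 48 h used to choose and 0.60 after scaling by median ratios. For the gained genes, -0.50 as reported, it was -0.47, -0.50, -0.32, -0.83 and -0.47. The 35 list medians, taken over counted genes, kept their sign with 1 FPKM added. Over all listed genes with 1 FPKM added, the naive median turned from -0.22 to 0.15 and the endothelial from 0.45 to -0.16. The median of primitive streak genes was then 0.03 in place of 1.61, and that of fibroblast markers 0.08 in place of 1.84. Scaling by median ratios turned neurectoderm to 0.0224 and muscle to 0.0184, and scaling to the upper quartile, an alternative chosen after seeing the data, turned Yap/Tead targets to -0.0664 and p53 targets to -0.004, all medians near 0.

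No paired analysis was possible because the table has no replicate columns, and leaving out a replicate could not be run for the same reason.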

Other observations

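The share of counted genes that were higher in 96 h –dox differed between chromosomes, from 9.02% on chromosome 17 to 18.6% on the X chromosome (452 genes counted), against 12.4% over all. The X chromosome also had 13.9% lower genes, against 11.2% over all. Chromosome 16 followed with 16.6% of 373 genes. Median log2 ratios by chromosome stayed between -0.09 and 0.17. Rhox6, Rhox9, Plac1 and Esx1 are among the X-linked genes that were higher, and these shares were not tested.

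Serpins outside the Serpinb9 cluster were higher in 9 of 10 counted genes and lower in none, with 6 of the 10 at 1 FPKM or more at 96 h and 5 of those 6 higher. The largest values were those of Serpinh1, a collagen chaperone (194 and 391 FPKM), Serpinb6a (38.5 and 120 FPKM) and Serpine2 (14.5 and 69.6 FPKM). Solute carriers and Zfp zinc fingers, families of general use, had 41 higher and 27 lower of 214, and 13 higher and 21 lower of 307. Over all counted genes 12.4% were higher and 11.2% lower. The count of lower solute carriers lay near that share, and both Zfp counts lay below it. These families were chosen after their values were seen.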
